A study of Mus musculus with 10 samples.

Results

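Genes that FGF signalling is known to induce and that feed back on it were followed in mouse embryos without fibulin-1. The set held 10 genes: the membrane inhibitors Spry1, Spry2, Spry4, Spred1 and Spred2, the ERK phosphatase Dusp6, the receptor inhibitor Il17rd and the ETS factors Etv1, Etv4 and Etv5. They were chosen by name, and every probe set that the platform annotation gives to 1 of them was used. This gave 15 probe sets of 9 genes, out of 12393 genes on the array with a probe set of their own. Both Etv1 probe sets carry the symbol of another gene as well (2 of 2), so Etv1 has no value here.

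When an FGF binds its receptor, the signal runs through adaptor proteins and Ras to the kinases Raf, MEK and ERK. ERK activity induces the PEA3 group of ETS transcription factors, Etv1, Etv4 and Etv5, and also induces brakes on the same pathway: Sprouty and Spred proteins act on Ras and Raf, Dusp6 removes phosphate from ERK, and Il17rd, also called Sef, acts at the receptor and on ERK. In the embryo these genes are widely used as readouts of FGF8 activity, because they are expressed close to sources of the ligand such as the arch epithelium and the border of midbrain and hindbrain.

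The tissue was microdissected from E10.5 embryos and held the hindbrain and pharyngeal arches 1 to 4. There were 5 wildtype embryos and 5 that were homozygous for a Fbln1 gene trap, called null here, all from matings of heterozygous carriers and each measured on 1 Affymetrix array. The gene trap is inherited and not limited to a cell type, and the litters of the embryos are not given, so the p-values below measure the spread between these samples. The study's title sets the question, the effect of fibulin-1 on FGF8 signalling.

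Every value below is a log2 signal per probe set as deposited, so a difference of 1 is a doubling. Unless stated otherwise, n is 5 arrays per genotype. The scale ran from 2.22 to 14.83. Array medians were 3.20 to 3.29, and 9618 to 9943 probe sets per array lay over log2 4. The genotype labels matched the Fbln1 signal: on the brighter Fbln1 probe set wildtype arrays read 3.83 to 5.11 and null arrays 2.52 to 2.85, with no overlap (exact permutation p = 0.00794, two-sided and the lowest possible with 5 and 5 arrays). Both Fbln1 probe sets were under the expression filter described below and so outside the main test. In a limma fit over all 22626 probe sets they differed by -1.88 (adjusted p = 0.0715) and -1.12 (adjusted p = 0.303). Thus even the trapped gene did not pass an adjusted p of 0.05 there. Hindbrain markers were present, with 7 of 10 on the array over the expression filter described below, and so were arch mesenchyme and neural crest markers, with 8 of 13 over it, while Dlx6 and Hand2 stayed under log2 3 on all arrays. Of 8 isthmus and midbrain markers, a region where these genes are strongly used, 7 stayed under log2 3 on all arrays, and Otx2 was the 1 over the filter. The summed signal of the hindbrain list was log2 9.84 to 10.37 in wildtype and 9.54 to 10.02 in null arrays, that of the arch list 11.0 to 11.45 and 10.95 to 11.58, and that of an erythroid list 11.89 to 13.37 and 12.67 to 13.50. Of the hindbrain markers over the filter, 1 had a higher and 6 had lower means in null tissue (median difference -0.22). Of the arch markers over it, 5 had higher and 3 lower means (median 0.15), and 2 of 2 erythroid markers had higher means (median 0.40). Over all 5912 genes over the filter, 2547 had higher and 3365 lower means. The part of these cell types in the results below was not tested. The summed signal of the isthmus list was log2 6.08 to 6.40 in wildtype and 5.93 to 6.60 in null arrays. One array, wildtype replicate 4, came from an embryo with Xist signal over Y-linked signal, and the other 9 had the reverse.

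The measured members were Spry2, Spred1 and Dusp6. Their promoters are shown because these 3 genes carry every comparison below and because ETS factors, the other arm of the set, bind DNA at a GGAA core. Capitals mark GGAA on either strand (TTCC on the other). The sequences are the 250 bases before the start of each gene, 5′ to 3′ on the gene's strand, from RefSeq on GRCm38.p6: Dusp6 at chr10:99262981-99263230 (plus strand), Spry2 at chr14:105896820-105897069 (minus strand) and Spred1 at chr2:117120821-117121070 (plus strand).
Dusp6: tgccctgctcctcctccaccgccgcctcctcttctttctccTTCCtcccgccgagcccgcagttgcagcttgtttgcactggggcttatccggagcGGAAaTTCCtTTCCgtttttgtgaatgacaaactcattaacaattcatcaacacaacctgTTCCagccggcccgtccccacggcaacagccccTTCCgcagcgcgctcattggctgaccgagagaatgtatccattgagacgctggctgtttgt
Spry2: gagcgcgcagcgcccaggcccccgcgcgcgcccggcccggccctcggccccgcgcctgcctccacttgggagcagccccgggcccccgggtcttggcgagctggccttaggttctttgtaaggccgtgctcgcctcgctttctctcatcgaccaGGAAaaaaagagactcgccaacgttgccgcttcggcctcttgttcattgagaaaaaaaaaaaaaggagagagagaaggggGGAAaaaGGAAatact
Spred1: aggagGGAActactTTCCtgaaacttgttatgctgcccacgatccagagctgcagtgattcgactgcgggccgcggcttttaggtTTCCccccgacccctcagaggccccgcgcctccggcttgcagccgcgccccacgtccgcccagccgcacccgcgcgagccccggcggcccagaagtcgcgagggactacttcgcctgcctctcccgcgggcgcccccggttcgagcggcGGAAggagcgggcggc
The GGAA core was found 6 times before Dusp6, 3 times before Spry2 and 4 times before Spred1, against a median of 3 over 32851 promoters of the same length, of which 93.4% hold it at least once. The longer ETS match CGGAAG, which contains the core and was also sought as CTTCCG, was found 1 time each before Dusp6 and Spred1, 62 and 17 bases before the start, and not in the Spry2 window. It occurs in 13.6% of all promoters. RefSeq entries matched 8 of the 10 members by symbol, all but Spry4 and Etv4. Among the other members, CGGAAG was found 1 time before Spred2 and not in the windows of Spry1, Il17rd, Etv1 or Etv5. A match is a description of letters and not a site shown to be bound.

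Most of the set could not be measured on these arrays. A probe set counted as measured if its signal was over log2 4 on 5 or more of the 10 arrays regardless of genotype, and 5 of the 15 member probe sets met this: 1 of Dusp6, 1 of Spry2 and 3 of Spred1. A further 9 stayed under log2 3 on all 10 arrays, between 2.26 and 2.76, which is the floor to which the authors' processing pulls dim probe sets. All probe sets of 5 genes, Spry1, Spry4, Il17rd, Etv4 and Etv5, were in that band. Among all genes with a name, 34.8% were there and 47.7% were over the filter, and Fgf8 itself, the ligand under study, read 2.26 to 2.27.

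**Figure D1:**
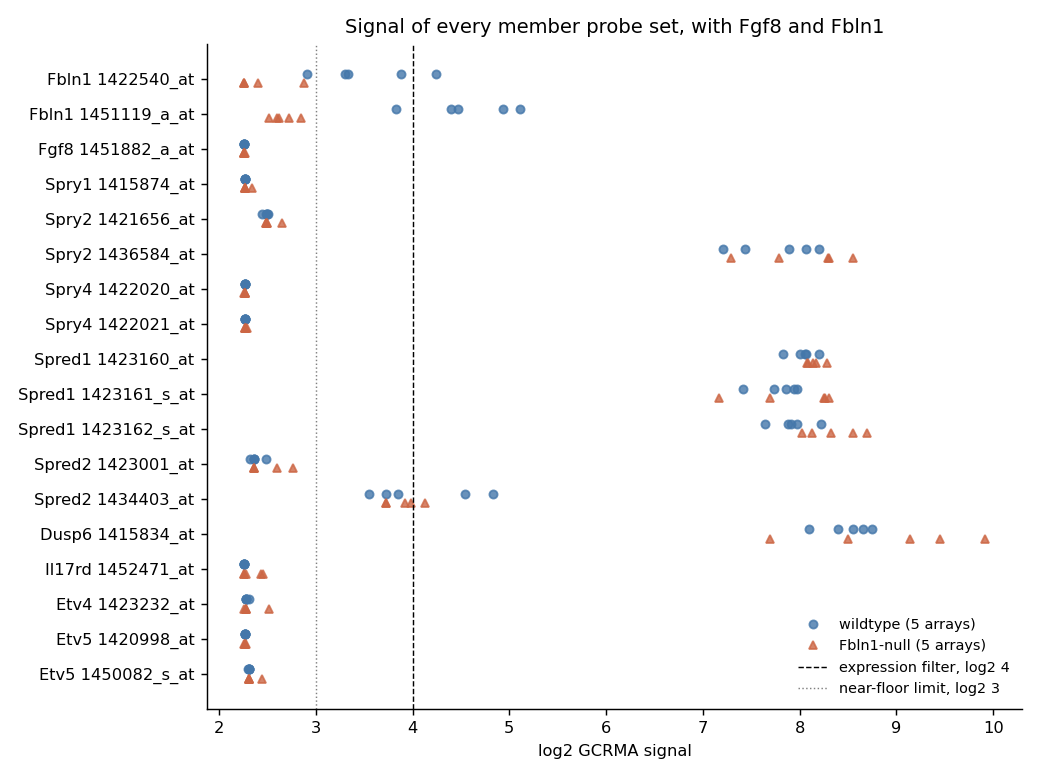
Log2 signal (horizontal axis) of the 15 member probe sets, with Fgf8 and both Fbln1 probe sets for comparison; each circle is 1 wildtype array and each triangle 1 null array, and the dashed and dotted lines mark log2 4 and log2 3. Only Spry2, Spred1 and Dusp6 have probe sets to the right of log2 4 on 5 or more arrays. The brighter Spred2 probe set lies there on 3 arrays, and the brighter and dimmer Fbln1 probe sets on 4 and 1. Spry2 and Spred2 each have a second probe set in the band near the floor.

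Near the floor the genotypes could not be compared as folds. Spry1, an inhibitor of receptor tyrosine kinase signals, read 2.27 on all 5 wildtype arrays and 2.27 to 2.34 on null arrays. Spry4, of the same family, read 2.26 to 2.29 over both probe sets and all arrays. Il17rd read 2.26 on all 5 wildtype arrays and 2.43, 2.26, 2.26, 2.28 and 2.45 in null replicates 3, 4, 5, 7 and 8. All of these values lie within the band near the floor.

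The ETS factors gave the same picture. Etv4 read 2.28 to 2.31 in wildtype and 2.26 to 2.52 in null arrays. The first Etv5 probe set (1420998_at) read 2.26 to 2.28 over all arrays. The second (1450082_s_at), of a type that can match transcripts of several genes, read 2.30 to 2.31 in wildtype and 2.31 to 2.44 in null arrays. The highest Etv4 value and the highest value of the second Etv5 probe set both came from null replicate 5. No fold is given for these 5 genes, and the values say nothing about a change below the arrays' range.

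Spred2, a Sprouty-related inhibitor of Raf activation, lay between the floor and the filter. On its brighter probe set (1434403_at) wildtype replicates 1 to 5 read 4.83, 4.54, 3.85, 3.55 and 3.73, and null replicates 3, 4, 5, 7 and 8 read 4.13, 3.98, 3.73, 3.92 and 3.73. The wildtype spread came from replicates 1 and 2, and all null values lay inside the wildtype range. In a fit over all 22626 probe sets, of which 0.00442% passed an adjusted p of 0.05, the null mean differed by -0.20 (SE 0.25, limma adjusted p = 0.801), on a part of the scale where differences are compressed. The other Spred2 probe set (1423001_at) read 2.32 to 2.76 and gives no second reading of the gene.

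Dusp6, the cytoplasmic phosphatase that inactivates ERK, was the most variable member. Wildtype replicates 1 to 5 read 8.55, 8.66, 8.40, 8.75 and 8.10, and null replicates 3, 4, 5, 7 and 8 read 9.45, 9.14, 7.69, 9.92 and 8.50. Of the null arrays 3 lay above every wildtype array, 1 lay below every one and 1 lay within. The means were 8.49 ± 0.26 (SD) in wildtype and 8.94 ± 0.87 in null tissue, a log2 difference of 0.45 (SE 0.34), or 1.37-fold with a 95% interval of 0.82 to 2.27. The difference did not pass the test (limma adjusted p = 0.635 over 9801 probe sets).

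The spread of Dusp6 in null tissue set it apart from the other members. Its SD was 3.38 times as large in null as in wildtype arrays, and 3.24% of the 9801 measured probe sets had a larger ratio. The ratio was 1.19 for Spry2 and 0.57, 2.21 and 1.36 for the probe sets of Spred1. This is a description, noticed after the values were seen, and the difference in spread was not tested. Null replicates 7 and 5 lie at its ends: without replicate 7 the Dusp6 difference was 0.20, and without replicate 5 it was 0.76 (limma adjusted p = 0.294). Of the 10 arrays, null replicate 5 had the highest actin ratio, a measure described below (2.85). Null replicate 7 had the lowest array median (3.20) and the fewest probe sets over log2 4 (9618). The part of these array properties in the Dusp6 spread was not tested.

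Spry2, which blocks Ras activation by receptor tyrosine kinases, varied in both genotypes. On its measured probe set (1436584_at) wildtype replicates 1 to 5 read 8.07, 8.20, 7.89, 7.21 and 7.44, and null replicates 3, 4, 5, 7 and 8 read 8.55, 8.30, 7.79, 8.29 and 7.29. Null replicates 3, 4 and 7 were above every wildtype array, while replicates 5 and 8 were inside the wildtype range. The means of 7.76 ± 0.42 and 8.05 ± 0.50 gave a log2 difference of 0.28 (SE 0.25), 1.22-fold with a 95% interval of 0.83 to 1.78 (limma adjusted p = 0.703). The other Spry2 probe set (1421656_at) read 2.44 to 2.65 on all arrays, near the floor, so the gene rests on 1 probe set.

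The Spry2 difference was smaller with a measure of RNA quality in the fit. The log2 ratio of the actin control probe sets at the 3′ and 5′ ends, which rises as RNA is shortened, was 2.0 to 2.38 in wildtype and 2.19 to 2.85 in null arrays. The ratio and Spry2 were not related past the threshold (r = 0.53, adjusted permutation p = 0.585). With this ratio in the fit the Spry2 difference was 0.06 (SE 0.28) and the Dusp6 difference 0.77 (SE 0.37, limma adjusted p = 0.433). Without wildtype replicate 4, the array with the lowest actin ratio and the Xist signal, the Spry2 difference was 0.14. The part of RNA quality and of embryo sex in these differences was not tested beyond these fits.

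Spred1, which inhibits the Ras-ERK pathway through neurofibromin, was read by 3 probe sets of like brightness, designed on the same transcript sequence. The first (1423160_at) was nearly flat, with 8.06, 8.20, 8.07, 8.00 and 7.83 in wildtype replicates 1 to 5 and 8.17, 8.28, 8.09, 8.08 and 8.14 in null replicates 3, 4, 5, 7 and 8. The difference was 0.12 (SE 0.11, limma adjusted p = 0.706), and its 95% interval of 0.92- to 1.29-fold was the narrowest among the 5 measured probe sets.

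The second (1423161_s_at) split the null arrays. Wildtype replicates read 7.94, 7.97, 7.86, 7.74 and 7.42, and null replicates read 8.25, 8.30, 7.69, 8.26 and 7.17. Null replicates 3, 4 and 7 lay above every wildtype array and replicate 8 below every one. The difference was 0.15 (SE 0.22, limma adjusted p = 0.839), and it was 0.34 without null replicate 8 and 0.06 to 0.07 without wildtype replicate 5 or null replicate 3, 4 or 7.

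The third (1423162_s_at) had the smallest limma p among the 5 measured probe sets. Wildtype replicates read 7.97, 7.88, 7.91, 8.22 and 7.64, and null replicates read 8.13, 8.55, 8.02, 8.70 and 8.32. All 5 null arrays were above the wildtype mean and 3 were above every wildtype array. The means were 7.92 ± 0.21 and 8.35 ± 0.28, a log2 difference of 0.42 (SE 0.16), 1.34-fold with a 95% interval of 1.06 to 1.70 (limma p = 0.0198, adjusted p = 0.323, exact permutation p = 0.0317 for this probe set alone). It did not pass over all probe sets, and 1028 of the 9801 differed between the genotype means by at least as much. With the actin ratio in the fit the difference of this probe set was 0.60 (SE 0.16, limma adjusted p = 0.2075). Like the second, the third probe set is of a type that can match transcripts of several genes.

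**Figure D2:**
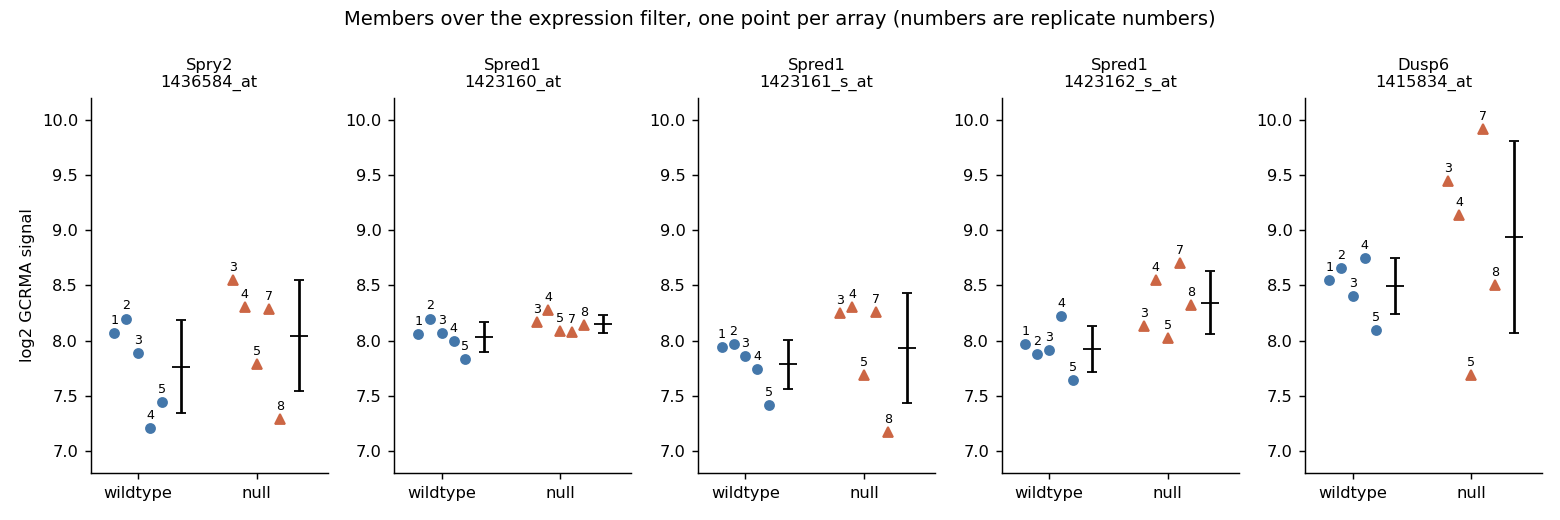
Log2 signal (vertical axis) of the 5 member probe sets over the filter in each wildtype (circles) and null (triangles) array; digits are replicate numbers, and the bars beside the points are mean ± SD (n = 5). Groups overlap on all 5, and null replicates run from 7.69 to 9.92 for Dusp6 but from 8.08 to 8.28 for the first Spred1 probe set.

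The genotype differences of the 3 Spred1 probe sets, 0.12, 0.15 and 0.42, did not differ from each other past the threshold. Taken array by array, the third minus the first was -0.11 ± 0.20 (SD) in wildtype and 0.19 ± 0.28 in null tissue, a shift of 0.30 (exact permutation p = 0.0714, adjusted p = 0.214 over the 3 pairs). With 1 array left out the shift was 0.19 to 0.38, and the unadjusted exact permutation p was 0.0317 without wildtype replicate 4 and up to 0.175 otherwise. The second minus the first shifted by 0.03 (adjusted exact permutation p = 0.913) and the third minus the second by 0.27 (adjusted exact permutation p = 0.429). The mean of all 3 probe sets gave a difference of 0.23 (SE 0.14, limma adjusted p = 0.542 over 5912 genes).

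Over the measured members together, all 5 probe sets had a higher mean in null tissue, against 43.1% of the 9801 measured probe sets. Past an adjusted p of 0.05 stood 0 of the 5 (limma), against 0.0204% of all, which were 2 probe sets, with 0 of the 9801 higher in null. At an unadjusted p of 0.05 stood 1 of the 5, the third Spred1 probe set, against 12.4% of all in either direction and 3.84% higher in null. That count was 0 without wildtype replicate 5, null replicate 4, null replicate 7 or both wildtype replicates 1 and 2, and 2 without null replicate 5, Dusp6 being the other. With the replicate number as a block, Spry2 stood there in place of the third Spred1 probe set. That fit compares only replicates 3, 4 and 5 of each genotype, because the other replicate numbers occur in 1 genotype alone. The genotypes did not overlap on 0 of the 5, against 2.77% of all. The median difference of the 5 was 0.28, against -0.04 over all. The 5 probe sets stand for 3 genes and 3 of them for 1 gene, so they are not 5 separate readings. In whole tissue, a change in the number of cells of a type and a change in RNA per cell cannot be told apart.

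These differences kept their sign under the settings run. Under 22 alternatives for each probe set, 110 in all, every difference remained above 0. Some of these settings act on the test and not on the difference, and 88 of the 110 gave a value other than the reported one. The sex covariate and leaving out wildtype replicate 4 are the same change. Over all of them the smallest adjusted p was 0.176, for the third Spred1 probe set with array weights. The size did move, over 0.06 to 0.70 for Spry2 and 0.20 to 0.77 for Dusp6. It moved over 0.07 to 0.23, 0.06 to 0.41 and 0.23 to 0.60 for the Spred1 probe sets in the order above. The upper ends for Spry2 and the second Spred1 probe set came from the replicate block, which compares only replicates 3, 4 and 5.

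**Figure D3:**
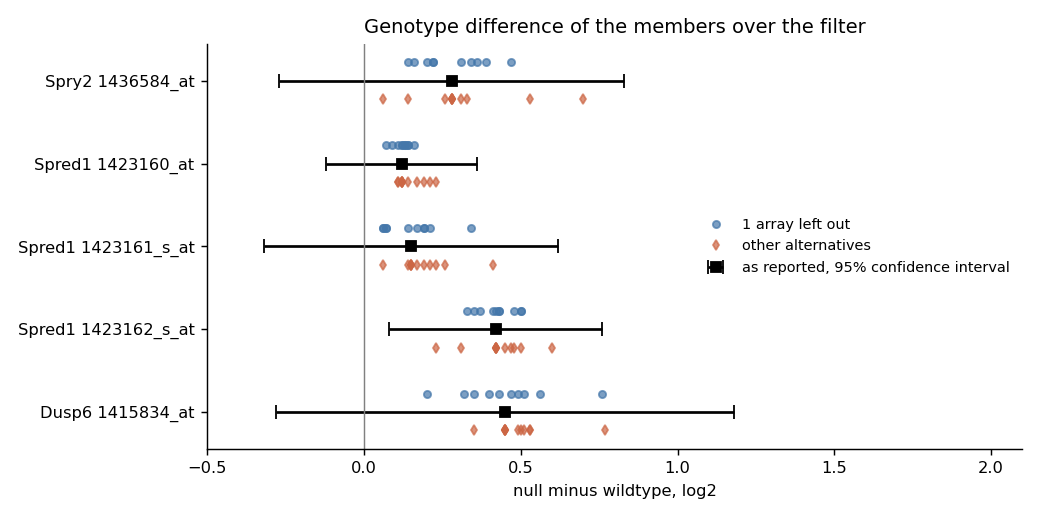
Null minus wildtype log2 difference (horizontal axis) of the 5 measured member probe sets; squares with bars are the reported values with 95% confidence intervals, circles leave out 1 array each and diamonds are the other alternatives. Every marker lies above 0, and the interval of 4 of the 5 reaches below 0.

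The members were also compared across embryos, each gene by the probe set with the highest mean over all 10 arrays, which is the third for Spred1. Spred1 and Dusp6 had a Pearson r of 0.72 over the 10 arrays (Spearman rho 0.64, permutation p = 0.0193 and 0.0551, adjusted over 3 pairs 0.0579 and 0.0903). Without null replicates 4 and 7, the arrays farthest from the Spred1 median, r was 0.39. Leaving out the farthest arrays also narrows the range, so the lower r does not show that the relation rests on them. Spry2 and Dusp6 had r = 0.58 (rho 0.62, permutation p = 0.0746 and 0.0602, adjusted 0.112 and 0.0903), and without the farthest arrays, wildtype replicate 4 and null replicate 8, r = 0.81. Spry2 and Spred1 had r = 0.26 (rho 0.21, permutation p = 0.463 and 0.562, adjusted 0.463 and 0.562), and r = 0.65 without the same 2 arrays. So 0 of the 3 pairs passed after adjustment.

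The last of these pairs had other values on the other Spred1 probe sets. In a comparison of all 10 pairs among the 5 probe sets, added after the values were seen, Spry2 and the second Spred1 probe set had r = 0.88 and rho = 0.89 (permutation p = 0.00089 and 0.0011, adjusted over 10 pairs 0.0089 and 0.011). Without wildtype replicate 4 and null replicate 8 r was 0.95, against 0.65 for the third probe set without the same arrays, and for deviations from the genotype means it was 0.88. With the first Spred1 probe set Spry2 had r = 0.60, and 0.81 without those arrays. The differences in r between the Spred1 probe sets were not tested. Both probe sets were high in null replicates 3, 4 and 7, low in null replicate 8 and in wildtype replicate 5, and intermediate in null replicate 5. The second Spred1 probe set followed Dusp6 with r = 0.70 and rho = 0.79 (permutation p = 0.0221 and 0.00887, adjusted 0.0737 and 0.0444), and r was 0.86 without wildtype replicate 5 and null replicate 8.

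Among themselves the probe sets of Spred1 had r of 0.43 to 0.52, with adjusted permutation p of 0.184 to 0.269. The actin ratio had r = 0.53 with Spry2 (rho 0.67, permutation p = 0.117 and 0.039, adjusted over 5 relations 0.585 and 0.195) and r = 0.29 with the second Spred1 probe set (rho 0.45, permutation p = 0.411 and 0.19, adjusted 0.685 and 0.317). Without wildtype replicate 4 and null replicate 5 these were r = 0.82 and 0.75. With the third Spred1 probe set its r was -0.07, and 0.14 without those arrays. With Dusp6 it was -0.18, and 0.53 without them. For deviations from the genotype means the actin ratio had r = -0.68 with the third Spred1 probe set and -0.46 with Dusp6. It had 0.44 with Spry2, and 0.03 and 0.22 with the first and second Spred1 probe sets. These r of deviations were not tested.

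**Figure D4:**
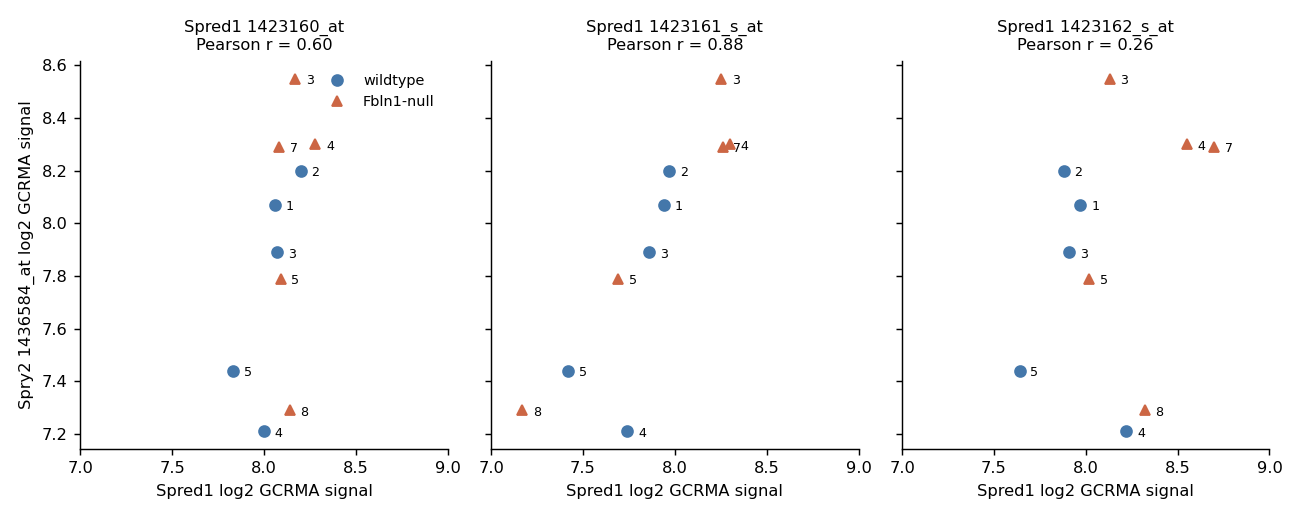
Spry2 log2 signal (vertical axis) against the log2 signal of each Spred1 probe set (horizontal axis), 1 point per array, circles for wildtype and triangles for null, with replicate numbers. The points fall along a line for the second probe set (r = 0.88) and scatter for the third (r = 0.26, or 0.65 without wildtype replicate 4 and null replicate 8), where null replicates 4, 7 and 8 lie to the right.

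The genes whose profile over the 10 arrays was closest to that of Dusp6, the member with the widest range (2.23), were sought. By root mean square difference of centred log2 values over 5911 other genes, where a flat profile would give 0.614, these were 2410002F23Rik (0.199), Nup153, a nucleoporin (0.211), Tnfaip6, a hyaluronan-binding protein (0.282), Hells, a chromatin remodeller (0.301), and Zbtb1, a zinc finger factor (0.310). Nup153 read 7.74 in null replicate 7 and 6.02 in null replicate 5, against 6.43 ± 0.24 (SD) in wildtype. Hells read 9.46 and 7.69 in the same arrays, against 8.24 ± 0.24. The limma adjusted p of the genotype difference was 0.472 to 0.866 for these 5 genes. Of the 5911 genes compared, only 41 were the further pathway genes described below, and the measure favours genes of like range. That these 5 are not among the listed pathway genes therefore says nothing about the pathway.

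The rest of the pathway gave no call either. Of 95 further genes listed, 75 had a probe set of their own, 41 were over the filter and 0 passed in either direction (limma adjusted p of 0.05), 3 being higher and 2 lower at an unadjusted p of 0.05. That is 12.2%, against 12.8% of 5912 genes. Means were higher in null tissue for 20 and lower for 21.

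At the membrane, 2 of 5 receptors were measured. Fgfr2 had a log2 difference of -0.26 (SE 0.14) and Fgfr3 0.06 (SE 0.15). Of 12 ligands of arch and hindbrain 1 was over the filter, Fgf9, at the filter's edge (4.01 ± 0.10 in wildtype, 4.00 ± 0.31 in null). Of 8 adaptors and Ras activators 2 had higher means, and the smallest p was that of Ptpn11, the phosphatase Shp2 that relays receptor signals to Ras, at -0.47 (SE 0.18, limma adjusted p = 0.332). Gab1, a docking protein, had 0.25 (SE 0.13). Of 5 genes from Ras to ERK, Map2k1, which encodes MEK1, had 0.27 (SE 0.13) and Map2k2, for MEK2, -0.28 (SE 0.17).

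The other brakes were mixed, with higher means for 3 of 9 measured and a median of -0.14. Cbl, a ubiquitin ligase for activated receptors, had 0.49 (SE 0.19, limma adjusted p = 0.336), and Dusp9, a further ERK phosphatase, went the other way with -0.73 (SE 0.31, limma adjusted p = 0.369). Of 6 other genes that respond to FGF8 or ERK, 4 had higher means (median 0.21), with Mycn, a growth-promoting transcription factor, at 0.56 (SE 0.22, limma adjusted p = 0.334) and Lhx8, a homeodomain factor of arch mesenchyme, at 0.41 (SE 0.16, limma adjusted p = 0.339). Of 10 other ETS factors 7 had higher means (median 0.03), led by Fli1 at 0.51 (SE 0.25) and Ets1 at 0.41 (SE 0.22), which are also expressed in endothelium. Ets1 is also on the list of arch mesenchyme and neural crest markers. The summed level of the endothelial marker list was 8.67 to 9.02 in wildtype and 8.83 to 8.90 in null arrays. Of its 4 genes over the filter 2 had higher and 2 lower means in null tissue. The part of cell types in these differences was not tested.

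**Figure D5:**
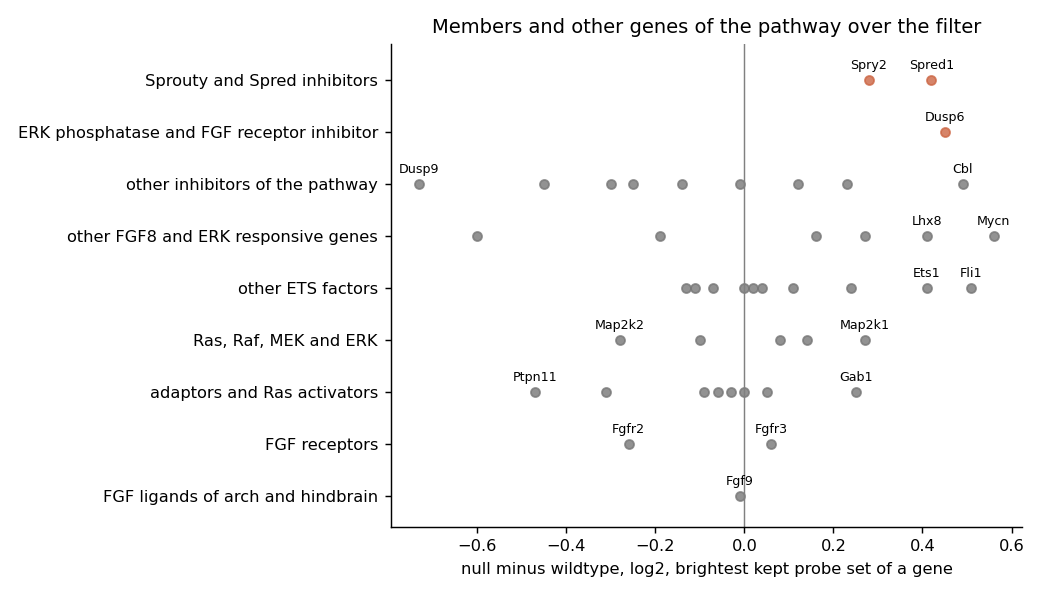
Null minus wildtype log2 difference (horizontal axis) of each measured gene, 1 point per gene on its brightest probe set, by list; members are coloured and other pathway genes grey, with up to 2 genes of smallest p named per list. The 3 measured members lie between 0.28 and 0.45, but Spred1 is drawn by the third of its probe sets, the brightest over all arrays and not in wildtype, and its others had 0.12 and 0.15. The other lists spread to both sides of 0, from Dusp9 at -0.73 to Mycn at 0.56.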

How the data were processed

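Total RNA of each embryo's tissue was labelled with a kit that primes from the transcript's 3′ end and hybridised to an Affymetrix array, per the labels' protocols. The deposited log2 values come from GCRMA, per the submitters' processing notes, and its version is not given in the sources used here. This method removes background by probe sequence, puts the arrays on 1 scale and leaves dim probe sets at a floor, so differences of dim genes are compressed. From 22690 probe sets 64 controls were dropped. The platform annotation gives 1 symbol to 20380 of the other 22626, several to 691 and none to 1555, and only the first were named.

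Probe sets over log2 4 on at least 5 of the 10 arrays were tested (9801), null against wildtype, with limma 3.58.1 in R 4.3.3 (lmFit and eBayes, genotype alone, two-sided, Benjamini-Hochberg over all of them, threshold 0.05). Probe sets under the filter were fitted among all 22626. Differences between probe sets used exact permutation over the arrays, and correlations 100000 resamples. A pathway gene was represented by the probe set over the filter with the highest mean over all 10 arrays, null arrays included. The fit was tested on simulated data with added differences, all larger than those reported for the members. That test does not show whether differences of the members' size would be found.

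The members and lists were chosen with earlier results of these data known. All members were named, 2 genes of smallest p per other list, and the 5 genes closest to the member of widest range. Replicate numbers 3, 4 and 5 occur in both genotypes, with correlations of deviations between same-numbered arrays of -0.191, -0.343 and 0.158. No label says that the numbers mark litters, so the arrays were not treated as pairs. So few correlations, without a comparison to differently numbered arrays, cannot show whether same-numbered embryos shared a litter or batch. Other settings tried concerned the filter, the floor, the scaling, the variance model, array weights, embryo sex, the actin ratio, a replicate block, arrays left out, the threshold and averaged probe sets of a gene. Precision is limited by the number of arrays.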

Additional observations from a re-analysis of the deposited data

Results flagged for a closer look

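A single array stood far from its group once, in the gene that checks the genotype and in no measured member. On the dimmer Fbln1 probe set null replicate 7 read 2.88 against 2.40 for the next highest null array and 2.26 for the lowest, a gap of 0.77 of the group's range. All 5 null values on this probe set lay under log2 3, in the band near the floor. By this measure about 1 group in 20 is picked out by chance, a rate that need not hold near the floor. The measure was applied to probe sets with any value over log2 3.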

How the results depend on the processing

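The number of member probe sets past the threshold was 0 under every alternative run, including an adjusted p of 0.1, and the number with a higher null mean was 5 under each. The count over all probe sets, 2 here, was less stable: 1 without a filter, 34 with a filter at log2 6, 8 with a variance trend, 34 with array weights, 46 at an adjusted p of 0.1, and 0 with the sex covariate, with the actin ratio or without wildtype arrays 1 and 2 together. Leaving out 1 array gave 0 to 7. With the replicate number as a block it was 0 over all probe sets and 0 for the members, with Spry2 at 0.70 (limma adjusted p = 0.273). The block leaves only replicates 3, 4 and 5 of each genotype to compare, and whether the numbers pair the arrays is not known. The shift between the first and second Spred1 probe sets was -0.07 to 0.22 with 1 array left out. The cause of these movements was not tested. Signal was a limit for the set, since 6 of 9 genes with probe sets were under the filter.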
